A study of Mus musculus with 17 samples.

Results

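The right ventricle (RV) was compared with the left ventricle (LV) at postnatal day 7 (P7) in 5 of the 17 RNA-seq libraries of the series, 2 of RV P7 and 3 of LV P7. The members were the libraries whose titles give that chamber and day. The other 12 libraries held 3 per chamber at P0 and at P3, and they enter here through the estimate of the spread and the comparison of ages. All groups were male mice of the C57Bl/6 strain, and the labels name no treatment and no genetic change. The labels call the libraries of a group biological replicates. Whether a library came from 1 heart or from several, and how the septum was divided between the chambers, is not stated in the labels. RNA was total RNA of the whole ventricle, sequenced from both ends with the strand kept. Levels are RPKM, reads scaled to transcript length and to library size, for RefSeq messenger RNA entries. The 5 libraries held 33218664 to 37334416 reads, of which 17879921 to 21731229 lay in the listed entries.

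Before birth the RV and LV pump in parallel against similar pressures. After birth the lung circulation opens and the ductus arteriosus closes, so the LV works against the high pressure of the systemic circulation and the RV against the low pressure of the lungs. In mice the first postnatal week is also the time in which most heart muscle cells stop dividing, capillaries spread and the muscle turns from glucose and lactate towards fatty acids. The labels describe P7 as the time when most cardiomyocytes have reached terminal differentiation.

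Ventricular muscle RNA dominated in all 5 libraries. Myl2, the ventricular regulatory myosin light chain, was at 11063, 11344 and 11833 RPKM in LV P7 and at 10468 and 12151 RPKM in RV P7. Sln, which encodes an atrial regulator of the calcium pump, was listed at 0 in all 5 libraries, and Bmp10, a growth factor of the atria, was at 0 in 4 and at 0.102 RPKM in RV P7 replicate 2. The other atrial markers were present, Myl7 at 13.6 to 66.7 RPKM, Nr2f1 at 1.64 to 3.23 RPKM and Myl4 at 0.940 to 2.49 RPKM. The lung gene Sftpc and the skeletal muscle entry of Tnnt3 were listed at 0 throughout, while the skeletal muscle genes Tnni2 and Mylpf were at 1.40 to 2.39 and 0.372 to 1.12 RPKM. Cidea, used here as a brown fat marker, was at 25.8 to 31.1 RPKM in all 5 libraries, while Ucp1, the defining brown fat gene, was at or under 0.0668 RPKM. RV P7 replicate 1 lay apart from the others. In a principal component analysis of the 5 libraries it had a score of 15.9 on the first component (36.6% of the variance), against 3.55 for RV P7 replicate 2 and -9.30 to -3.90 for LV P7.

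Nppb, which encodes B-type natriuretic peptide, a hormone released by stretched ventricular muscle, had the largest difference between the chambers at P7 among the 17 called entries on the log2(RPKM + 1) scale. As a ratio of means, those of Nrn1 and Ubxn10, genes of low level, were larger. The Nppb level was 131, 180 and 197 RPKM in the LV libraries and 33.1 and 53.6 RPKM in the RV libraries. Both RV values were below every LV value, and the LV mean was 3.91 times the RV mean. On the log2(RPKM + 1) scale the RV minus LV difference was -1.96 ± 0.30 (SE, adjusted p = 0.0079, limma). Its neighbour Nppa encodes atrial natriuretic peptide, which the fetal ventricle also makes. Nppa was at 153, 239 and 251 RPKM in LV P7 and at 41.7 and 116 RPKM in RV P7. These groups did not overlap either, but the difference of -1.58 ± 0.32 missed the threshold (adjusted p = 0.053). In a fit that paired the libraries by replicate number it was -1.45 ± 0.25 (adjusted p = 0.0066). The Nppa difference depended on 1 library. Without RV P7 replicate 1 it was -0.85, or -1.04 with pairing, and without RV P7 replicate 2 it was -2.30. Such fits hold no spread of RV P7, so only sizes are given. In bulk tissue, fewer cells of a type and less RNA per cell cannot be told apart, here and in the results that follow.

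Nppb (chromosome 4, 147985786 to 147987205) and Nppa (chromosome 4, 148000722 to 148002074) are neighbours on the same strand, and their start regions are shown because both were low in the RV at P7. Each window runs from 250 bases before to 50 bases after the gene start, in RefSeq coordinates of GRCm38.p6, chr4:147985650-147985949 on the plus strand for Nppb and chr4:148000472-148000771 on the plus strand for Nppa. The start used for the Nppb window lies inside the full span of the gene, which begins at a start further upstream.
Nppb: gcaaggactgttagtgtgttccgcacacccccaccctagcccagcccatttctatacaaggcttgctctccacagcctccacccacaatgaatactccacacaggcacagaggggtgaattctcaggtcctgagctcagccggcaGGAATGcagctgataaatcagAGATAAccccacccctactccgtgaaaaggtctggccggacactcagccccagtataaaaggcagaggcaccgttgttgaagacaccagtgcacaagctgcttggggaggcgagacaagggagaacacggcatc
Nppa: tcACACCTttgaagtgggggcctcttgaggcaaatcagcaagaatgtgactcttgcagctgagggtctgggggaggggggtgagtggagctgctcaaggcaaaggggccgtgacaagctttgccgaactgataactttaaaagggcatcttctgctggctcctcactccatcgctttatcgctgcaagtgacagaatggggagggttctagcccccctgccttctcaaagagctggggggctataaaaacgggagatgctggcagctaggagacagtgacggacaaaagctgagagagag
Capitals mark matches, on either strand, to the M-CAT motif CATTCC, the GATA motif AGATAA and the T-box motif AGGTGT, none of which overlap. The Nppb window held 1 M-CAT match, printed as GGAATG, and 1 GATA match, and the Nppa window held 1 T-box match, printed as ACACCT. Of 32851 promoter windows of this length, 14.7% held the M-CAT motif, 11.2% the GATA motif and 13.7% the T-box motif, so such matches are common.

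Of the 16 tested genes of a stretch and fetal gene list, Nppb alone was called without pairing (0.159% of all tested entries were called), and 5 had an unadjusted p under 0.05. With pairing Nppb and Nppa were called lower and Acta2 higher, against 0.562% and 0.441% of all entries. The list's median difference was -0.07 against -0.03 over all tested entries. Ankrd1, a stretch-induced repeat protein of the sarcomere, was at 467, 600 and 564 RPKM in LV P7 and 353 and 498 RPKM in RV P7, so the groups overlapped. Npr1, the receptor for both peptides, was at 13.4 to 16.4 RPKM in LV P7 and at 11.2 and 12 RPKM in RV P7 (difference -0.32 ± 0.14, adjusted p = 0.64). Myh7, the slow myosin heavy chain of the fetal ventricle, was at 14.7, 15.9 and 15.8 RPKM in LV P7 and 14.8 and 14.4 RPKM in RV P7. Myl7, the atrial myosin light chain, was at 53.4, 57.7 and 66.7 RPKM in LV P7 and at 60.4 RPKM in RV P7 replicate 2 but at 13.6 RPKM in RV P7 replicate 1. Myl4, the atrial essential light chain, was at 1.59 to 2.49 RPKM in LV P7 and at 0.940 and 1.88 RPKM in RV P7, again lowest in RV P7 replicate 1. The low Myl7 value belonged to the library that also had the lower Nppa and Nppb values of the RV group, and what part that library's tissue had in them was not tested. With RV P7 replicate 2 as the only RV library the Myl7 difference was 0.03, and with RV P7 replicate 1 alone it was -2.04. The Nppb difference was -1.62 and -2.30 in the same fits. With 1 RV library these fits hold no spread of RV P7, so only sizes are given.

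Few of the 10668 tested entries passed an adjusted p under 0.05 at P7. In the fit of group means without pairing, 17 entries were called (0.159%), 8 higher in the RV (0.0750%) and 9 lower (0.0844%). At an unadjusted p under 0.05 there were 747. All 17 had no overlap between the RV and LV libraries, against 8.11% of all tested entries with both RV values above the LV values and 15.5% with both below. The calls came from these same libraries, so this lack of overlap follows largely from the selection. For a single gene, 2 libraries against 3 allow 10 splits, so an exact permutation test cannot give a two-sided p under 0.1, and Nppb reached that value. The calls depended on single libraries, since without RV P7 replicate 1 there were 0 calls (453 at an unadjusted p under 0.05, limma) and without RV P7 replicate 2 there were 8. A fit with 1 RV P7 library holds no spread of RV P7, so its count rests on the spread of the other groups. Leaving out LV P7 replicates 1, 2 and 3 gave 10, 6 and 3 calls. All 17 kept their direction in each of these, which their lack of overlap fixed in advance, so it is no support for them.

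Libraries with the same replicate number deviated together within each age, so the numbers were taken to pair LV with RV. This pairing was inferred from the same values, not from the labels. At P7 the 2 RV libraries mirror each other, so their 2 pairs are not separate evidence. With the replicate number as a block, 107 entries were called at P7 (1.0%), 47 higher in the RV (0.441%) and 60 lower (0.562%). All 17 earlier calls were among them and 90 were added. LV P7 replicate 3 has no RV partner and does not enter the P7 difference of this fit. With it included, 102 of the 107 showed no overlap, against 8.11% of all tested entries with both RV values above and 15.5% below. The calls came from the other P7 libraries, so this lack of overlap follows largely from the selection. The sizes were modest, and 13 of the 107 differed by more than 1 on the log2 scale. With only 1 pair at P7 the fit holds no spread of P7, and its p-values rest on the P0 and P3 pairs. Only sizes are therefore given for such fits. Nppb differed by -1.73 without RV P7 replicate 1 and -1.96 without RV P7 replicate 2, while Eva1a differed by -0.29 and -1.07. All 107 kept their sign in both fits, but the difference with the block averages the same pairs, so this is no separate support.

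**Figure D1:**
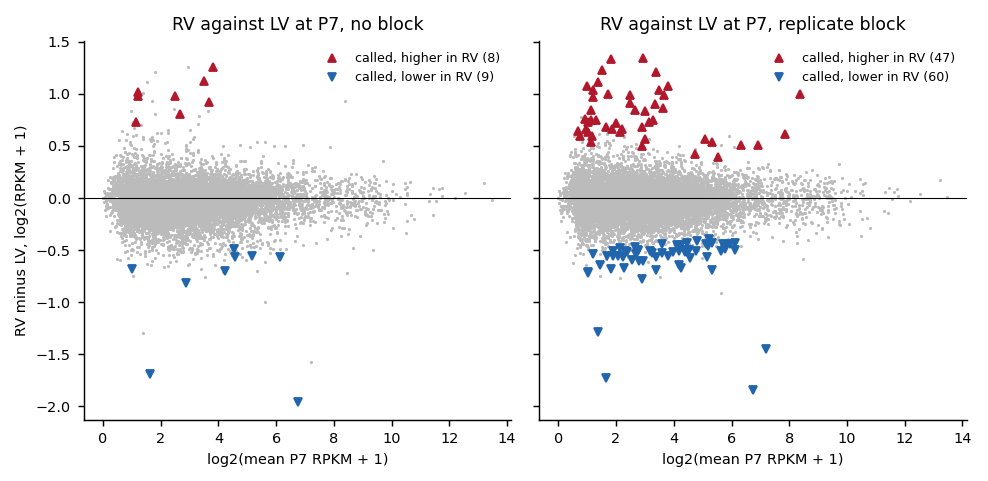
Difference between RV and LV at P7 on the log2(RPKM + 1) scale (vertical axis) against the log2 mean P7 level (horizontal axis) for 10668 tested entries, without the replicate block (left) and with it (right). Grey points were not called. Triangles were called at an adjusted p under 0.05, 17 on the left and 107 on the right, and Nppb is the lowest of them.

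Among the 8 genes called higher in the RV, the largest difference on the log2(RPKM + 1) scale was that of Ddc, aromatic L-amino acid decarboxylase, which makes dopamine and serotonin from their amino acid precursors. Ddc was at 9.78, 7.12 and 5.33 RPKM in LV P7 and at 18.2 and 19.1 RPKM in RV P7, a mean 2.52 times as high, while the low genes Ubxn10, Drd2 and Phkg1 had larger ratios of 3.98, 3.68 and 2.65. The difference was 1.26 ± 0.16 (adjusted p = 0.00167). Both RV libraries lay above every LV library, and the value is that of 1 of the 2 entries of the gene. Maob, a mitochondrial monoamine oxidase that degrades dopamine, was at 3.74, 3.15 and 3.87 RPKM in LV P7 and 7.96 and 6.10 RPKM in RV P7 (0.80 ± 0.14, adjusted p = 0.0147). Drd2, a dopamine receptor, was low but also apart, at 0.853, 0.311 and 0.514 RPKM (16 to 47 reads) in LV P7 and 2.30 and 1.82 RPKM (129 and 105 reads) in RV P7 (0.98 ± 0.17, adjusted p = 0.0125). Other genes of amine handling were not called. Dbh, which turns dopamine into noradrenaline, was at 1.52 to 2.34 RPKM in LV P7 and 2.47 and 2.75 RPKM in RV P7 (difference 0.30). Maoa, the other monoamine oxidase, was at 1.91 to 2.29 RPKM in LV P7 and 2.42 and 2.09 RPKM in RV P7, which overlap. Drd2 and Maoa were looked up after the values were seen.

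Aqp4, a water channel, was at 8.06, 5.05 and 5.18 RPKM in LV P7 and at 16.3 and 12.3 RPKM in RV P7, a difference of 1.12 ± 0.18 (adjusted p = 0.0125). Wif1, a secreted inhibitor of Wnt ligands, was at 3.15, 2.32 and 2.78 RPKM in LV P7 and 5.33 and 7.56 RPKM in RV P7 (0.98 ± 0.17, adjusted p = 0.0143). It was the only one of 25 tested Notch and Wnt genes that was called (0.159% of all entries). Of the 25, 7 had an unadjusted p under 0.05 (limma). Both RV libraries lay above all LV libraries in 2 and below in 8, against 8.11% and 15.5% of all entries. Lrtm1, a membrane protein with leucine-rich repeats, was at 7.88, 6.75 and 8.55 RPKM in LV P7 and 16.5 and 14.6 RPKM in RV P7 (0.92 ± 0.14, adjusted p = 0.0079). For Aqp4, Wif1 and Lrtm1 the 2 RV libraries lay above all 3 LV libraries. At lower levels, Ubxn10 was at 0.494 to 0.564 RPKM in LV P7 and 1.93 and 2.23 RPKM in RV P7 (1.01 ± 0.17), and Phkg1, a catalytic subunit of phosphorylase kinase, was at 0.491 to 0.800 RPKM in LV P7 and 1.61 and 1.89 RPKM in RV P7 (0.73 ± 0.14). Both were called, at adjusted p = 0.0125 and 0.0413 (limma), and both are under the 5 RPKM set for naming genes, so they were picked after their values were seen.

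**Figure D2:**
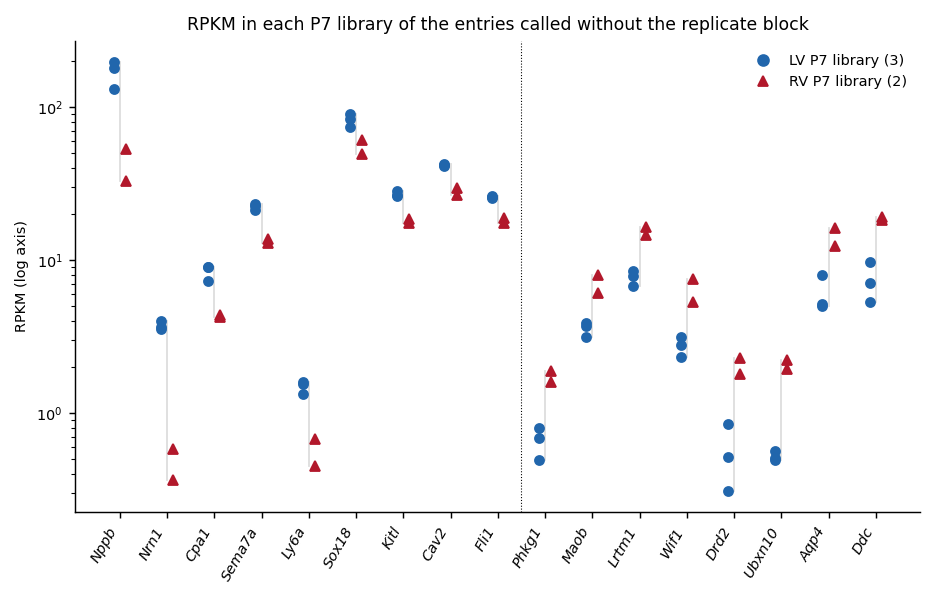
RPKM (log axis) of the 17 entries called without the replicate block, in each of the 3 LV P7 libraries (circles) and 2 RV P7 libraries (triangles). Genes are ordered by the RV minus LV difference, with the 9 lower in the RV to the left of the dotted line and the 8 higher to the right, and circles and triangles do not overlap for any gene.

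Genes lower in the RV included several signalling molecules. Nrn1, a small membrane-anchored protein known from neurite growth, was at 4.02, 3.67 and 3.56 RPKM in LV P7 and at 0.580 and 0.363 RPKM (34 and 22 reads) in RV P7, a difference of -1.69 ± 0.25 (adjusted p = 0.0079). Its level is under the 5 RPKM set for naming genes, and it was picked after its values were seen. Sema7a, a membrane-anchored semaphorin, was at 22.7, 21.2 and 23.4 RPKM in LV P7 and 13.9 and 13 RPKM in RV P7 (-0.70 ± 0.13, adjusted p = 0.0311). Kitl, the ligand of the receptor kinase KIT, was at 28.5, 26.2 and 26.7 RPKM in LV P7 and 17.4 and 18.5 RPKM in RV P7 (-0.57 ± 0.09, adjusted p = 0.0125). Neither overlapped between the chambers, and replicates differed by far less than the chambers did. Cpa1, a carboxypeptidase, was at 8.96, 7.31 and 9.0 RPKM in LV P7 and 4.28 and 4.36 RPKM in RV P7 (-0.82 ± 0.14, adjusted p = 0.0125). Ly6a, a cell-surface antigen also called Sca-1, was called in 1 of its 5 entries, at 1.34 to 1.60 RPKM in LV P7 and 0.448 and 0.678 RPKM in RV P7 (-0.68 ± 0.14, adjusted p = 0.048). How reads shared by those entries were divided is not given, so that entry is no measure of the whole gene.

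The remaining 3 called genes that were lower in the RV are known from endothelium, the lining of blood vessels. Sox18, a transcription factor of vessel development, was at 83.6, 73.8 and 90.4 RPKM in LV P7 and 61.4 and 49.5 RPKM in RV P7 (-0.57 ± 0.11, adjusted p = 0.033). Cav2, a protein of caveolae, was at 42.2, 41.8 and 41.1 RPKM in LV P7 and 26.6 and 29.5 RPKM in RV P7 (-0.56 ± 0.11, adjusted p = 0.0475). Fli1, an ETS factor of blood and endothelial cells, was at 26.4, 25.6 and 25.8 RPKM in LV P7 and 17.5 and 18.9 RPKM in RV P7 (-0.49 ± 0.10, adjusted p = 0.048). The 3 sit just inside the threshold. Without LV P7 replicate 3 none of them was called (adjusted p = 0.207, 0.178 and 0.2, limma). Without LV P7 replicate 2 Sox18 was called (adjusted p = 0.0456, limma). With RV P7 replicate 1 left out their differences were -0.72, -0.49 and -0.44. With RV P7 replicate 2 left out they were -0.42, -0.63 and -0.54.

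A list of 16 blood endothelial genes held few calls. Without the block 0 of 16 were called, although 11 had an unadjusted p under 0.05. With the block 1 was called lower, Kdr, and 1 higher, Vwf, against 0.562% and 0.441% of all entries. With 1 pair at P7 their differences were -0.44 and 1.20 without RV P7 replicate 1 and -0.48 and 0.60 without RV P7 replicate 2. In 11 of the 16 both RV libraries lay below all 3 LV libraries, against 15.5% of all tested entries, and the median difference was -0.38 against -0.03 over all entries. Kdr, the main receptor for the growth factor VEGF on vessels, was at 57.4, 64.0 and 69.1 RPKM in LV P7 and 41.0 and 46.8 RPKM in RV P7 (-0.46 ± 0.10 with the block, adjusted p = 0.0265). Cdh5, the cadherin of endothelial junctions, was at 185, 184 and 206 RPKM in LV P7 and 146 and 138 RPKM in RV P7 (-0.43 ± 0.12, adjusted p = 0.17). Pecam1, Tek and Emcn, which are also endothelial, overlapped between the chambers and differed by 0.02, -0.07 and 0.03. The Pecam1 values are those of 1 entry at 4.91 to 5.88 RPKM, which may not measure the whole gene. Vwf, the clotting factor made by endothelium of larger vessels and the endocardium, went the other way, at 5.44, 6.02 and 7.56 RPKM in LV P7 and 8.74 and 15.1 RPKM in RV P7 (0.90 ± 0.19 with the block, adjusted p = 0.0252). The endothelial genes did not all lie on the same side.

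The summed level of the 16 endothelial genes was 2201, 2397 and 2299 RPKM in LV P7, 1560 RPKM in RV P7 replicate 1 and 2088 RPKM in RV P7 replicate 2. Fabp4, at 1030 to 1730 RPKM, made up most of that sum. The list's median difference stayed negative in 1 RV library at a time, at -0.31 without RV P7 replicate 1 and -0.40 without RV P7 replicate 2. Further genes known from endothelium were called lower with the block, and these were picked after their values were seen. Cav1, the main caveolar protein, was at 36.4, 43.9 and 45.2 RPKM in LV P7 and 26.6 and 31.2 RPKM in RV P7. Icam2, an adhesion molecule of endothelium, was at 75.8, 78.1 and 86.6 RPKM in LV P7 and 50.7 and 63.2 RPKM in RV P7. Bcl6b, Elk3, Gimap6, Nostrin and Cxcr4 differed by -0.51, -0.44, -0.46, -0.56 and -0.69 in that fit. At P3 the median of the 16 genes was 0.13 and at P0 it was 0.02.

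**Figure D3:**
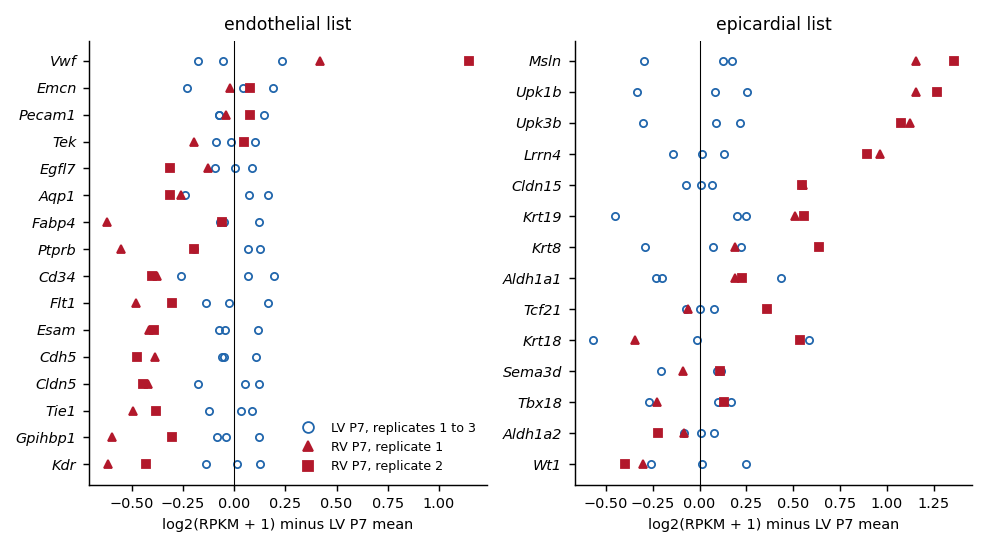
Levels of the 16 endothelial (left) and 14 epicardial (right) list genes in each P7 library, as log2(RPKM + 1) minus the mean of the 3 LV P7 libraries (open circles). Filled triangles are RV P7 replicate 1 and filled squares RV P7 replicate 2. Most endothelial genes have both filled symbols to the left of the circles, while Msln, Upk1b, Upk3b and Lrrn4 of the epicardial list have both far to the right.

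Some genes of the mesothelial surface layer were called higher in the RV with the block. The epicardium is the thin cell layer that covers the heart, and it carries keratins, uroplakins and mesothelin. Of 14 tested epicardial list genes, 5 were called higher with the block and 0 lower (0.441% and 0.562% over all entries), and 6 had both RV libraries above all LV libraries (8.11% over all entries). Without the block 0 were called and 5 had an unadjusted p under 0.05. Msln, mesothelin, was at 2.67, 3.91 and 4.08 RPKM in LV P7 and 9.03 and 10.6 RPKM in RV P7 (1.34 ± 0.13 with the block, adjusted p = 2.78e-05). Upk3b, a uroplakin of mesothelial cells, was at 4.43, 6.11 and 6.76 RPKM in LV P7 and 13.6 and 13.1 RPKM in RV P7 (1.21 ± 0.15, adjusted p = 0.000257). Upk1b was at 0.667, 1.23 and 1.51 RPKM in LV P7 and 3.69 and 4.06 RPKM in RV P7, Lrrn4 at 1.04 to 1.47 RPKM in LV P7 and 3.41 and 3.20 RPKM in RV P7, and Krt19 at 1.75 to 3.48 RPKM in LV P7 and 4.36 and 4.54 RPKM in RV P7. In each of the 5 genes both RV libraries lay above all 3 LV libraries.

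The epicardial transcription factors did not follow. Wt1, the factor used most often to mark the epicardium, was at 4.14, 5.22 and 6.30 RPKM in LV P7 and 3.99 and 3.66 RPKM in RV P7 (-0.35 ± 0.15, adjusted p = 0.62). Tbx18 overlapped, with a difference of -0.05, and Aldh1a2, the retinoic acid enzyme of the epicardium, differed by -0.15. The list's median was 0.31 at P7, 0.44 at P3 and 0.27 at P0. The P7 median was 0.54 without RV P7 replicate 1 and 0.19 without RV P7 replicate 2. With 1 pair at P7, Msln, Upk3b, Upk1b, Lrrn4 and Krt19 differed by 1.24, 0.99, 1.18, 0.88 and 0.36 without RV P7 replicate 1. Without RV P7 replicate 2 they differed by 1.45, 1.42, 1.49, 1.11 and 0.96. Krt7, Clic3, Efemp1 and Igfbp6, picked after their values were seen, were also called higher with the block, by 1.22, 1.11, 0.91 and 0.84. Krt7, a keratin of simple epithelia and mesothelium, was at 0.526, 0.846 and 1.10 RPKM in LV P7 and 2.49 and 3.41 RPKM in RV P7. How much epicardium or adhering tissue each dissected piece carried was not measured apart from these genes.

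Acta2, smooth muscle actin, which immature heart muscle cells and myofibroblasts also make, was among the most abundant transcripts that differed. It was at 204, 230 and 249 RPKM in LV P7 and 371 and 508 RPKM in RV P7, with 18625 or more reads in every library. The difference was 0.93 ± 0.21 (adjusted p = 0.069), and 1.0 ± 0.12 with the block (adjusted p = 0.000173). Other genes of the contractile smooth muscle cell did not all follow. Tagln was at 12.7, 15.0 and 13.6 RPKM in LV P7 and 15.7 and 25.1 RPKM in RV P7 (0.50 ± 0.17, adjusted p = 0.40), Cnn1 overlapped, and the smooth muscle entry of Myh11 was at 0.114 RPKM or less throughout. Myl9, a smooth muscle myosin light chain, was called with the block (0.61 ± 0.11, adjusted p = 0.00726), although its levels of 150, 200 and 223 RPKM in LV P7 overlapped those of 221 and 318 RPKM in RV P7. The pericyte gene Rgs5 lay lower in the RV, at 267, 236 and 242 RPKM in LV P7 and 199 and 179 RPKM in RV P7 (-0.40 ± 0.12, adjusted p = 0.28). Of 11 tested smooth muscle and pericyte genes, Acta2 alone was called with the block (1.0% of all entries).

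Among 33 tested matrix genes, 2 were called higher with the block (0.441% over all entries) and 0 lower. Tnc, tenascin-C, a matrix protein of growing or injured tissue, was at 4.52, 6.27 and 7.46 RPKM in LV P7 and 7.58 and 11.8 RPKM in RV P7 (0.73 ± 0.11, adjusted p = 0.0024). Fmod, fibromodulin, which binds collagen fibres, was at 8.75, 6.63 and 8.18 RPKM in LV P7 and 13.5 and 16.0 RPKM in RV P7 (0.87 ± 0.19, adjusted p = 0.0347). With 1 pair at P7 the Tnc difference was 0.82 without RV P7 replicate 1 and 0.64 without RV P7 replicate 2. For Fmod it was 1.16 and 0.58. No fibrillar collagen of the list was called. Col1a1 was at 165 to 226 RPKM in LV P7 and 194 and 225 RPKM in RV P7, and Col3a1 at 440 to 467 RPKM in LV P7 and 492 and 565 RPKM in RV P7 (0.20, adjusted p = 0.97). Col4a1, of the basement membrane that surrounds vessels and muscle cells, was at 296 to 346 RPKM in LV P7 and 264 and 261 RPKM in RV P7 (-0.27, adjusted p = 0.47). The fibroblast list had a median of 0.00 with 0 of 14 called and 1 at an unadjusted p under 0.05.

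**Figure D4:**
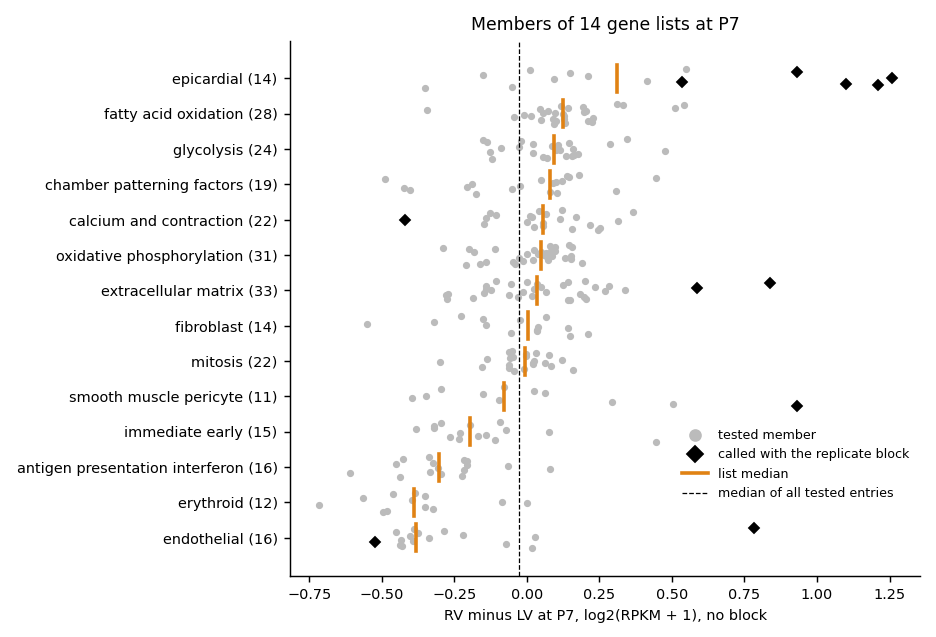
RV minus LV difference at P7 on the log2(RPKM + 1) scale without the block, for the tested members of 14 gene lists (number tested in brackets). Black diamonds were called with the replicate block, orange bars are list medians and the dashed line is the median of all tested entries, -0.03. The endothelial and red cell lists lie furthest to the left and the epicardial list furthest to the right.

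Of 19 tested chamber patterning factors, the transcription factors that set up the ventricles, 0 were called in either fit (0.159% and 1.0% of all entries). Without the block 4 had an unadjusted p under 0.05 (limma), against 747 of all 10668 entries. Both RV libraries lay above all LV libraries in 3 and below in 5, against 8.11% and 15.5% of all tested entries. The median difference was 0.08. Hand1, a factor of the embryonic LV, was at 0.0889, 0.254 and 0.0579 RPKM in LV P7, from 6, 16 and 4 reads, and had 0 reads in both RV libraries. At P0 the same gene was at 3.82 to 7.94 RPKM in the LV and 0.989 to 1.11 RPKM in the RV, a difference of -1.57. Hand2, its counterpart in the embryonic RV, was at 28.6, 23.0 and 25.4 RPKM in LV P7 and 26.6 and 28.6 RPKM in RV P7. Tbx5, a T-box factor of the atria and LV, was at 4.96 to 6.96 RPKM in LV P7 and 6.85 and 6.04 RPKM in RV P7, which overlap. Irx1 was at 2.11 to 3.01 RPKM in LV P7 and 1.86 and 1.25 RPKM in RV P7 (-0.42 ± 0.22, adjusted p = 0.76), and Irx4, the ventricular Iroquois factor, overlapped at 16.9 to 23.5 RPKM in LV P7 and 20.7 and 18.2 RPKM in RV P7. Irx2 and Irx5 differed by -0.21 and -0.19. Irx3 was too low to be tested, at 0.263 RPKM or less in its higher entry. Hey2, a Notch target of the compact ventricular wall, was at 8.32, 7.04 and 6.74 RPKM in LV P7 and 9.58 and 11.1 RPKM in RV P7 (0.44 ± 0.12, adjusted p = 0.20). Its relative Hey1 lay the other way, at 7.77 to 8.87 RPKM in LV P7 and 5.48 and 5.77 RPKM in RV P7 (-0.49 ± 0.16, adjusted p = 0.36). Tbx20 was at 15.8 to 16.2 RPKM in LV P7 and 18.0 and 22.4 RPKM in RV P7 (0.31, adjusted p = 0.71).

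Sarcomere and calcium genes were near even. Myh6, the adult myosin heavy chain, was at 56.3, 37.5 and 55.8 RPKM in LV P7 and 72.9 and 67.1 RPKM in RV P7. The difference was 0.50 ± 0.31 (adjusted p = 0.86, limma). The Myh6 values are those of 1 entry, which may not measure the whole gene. Tnni1, the slow troponin I of the fetal heart, was at 53.1 to 55.4 RPKM in LV P7 and 54.7 and 71.8 RPKM in RV P7. Tcap, telethonin, which anchors titin at the Z-disc, was at 172, 94.4 and 103 RPKM in LV P7 and 167 and 107 RPKM in RV P7, with both replicates numbered 1 high. Ppp1r1b, a phosphatase inhibitor, was at 3.28, 2.11 and 2.91 RPKM in LV P7 and 3.54 and 2.63 RPKM in RV P7, again with overlap (0.12 ± 0.16). Of 22 tested genes of calcium handling and contraction, 0 were called without the block, with 2 at an unadjusted p under 0.05. With the block 1 was called lower (0.562% of all entries), an entry of Sri (sorcin) at 1.99 to 3.59 RPKM. Of 19 tested potassium and sodium channel genes, 1 was called in each direction with the block, against 0.441% of all entries higher and 0.562% lower. Kcna5, of the ultra-rapid delayed rectifier, was at 13.6, 12.7 and 13.7 RPKM in LV P7 and 8.70 and 8.84 RPKM in RV P7 (-0.53 ± 0.10, adjusted p = 0.0165). Kcnd2, of the transient outward current, was at 1.92, 1.64 and 1.99 RPKM in LV P7 and 3.55 and 3.24 RPKM in RV P7 (0.66 ± 0.13, adjusted p = 0.0165). Neither channel overlapped between chambers, and both missed the threshold without the block (adjusted p = 0.051 and 0.067, limma).

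No gene of the fatty acid oxidation, glycolysis or respiratory chain lists was called in either fit. Of 28 tested fatty acid oxidation genes 25 had a positive difference, 10 had both RV libraries above all LV libraries (8.11% over all entries), and 6 had an unadjusted p under 0.05. Their median was 0.13, and it depended on the RV libraries, at 0.17 without RV P7 replicate 1 and 0.06 without RV P7 replicate 2, or 0.24 and 0.01 with the block. Hadha, of the mitochondrial trifunctional protein, was at 382 to 427 RPKM in LV P7 and 479 and 468 RPKM in RV P7 (0.23 ± 0.10). Cd36, the fatty acid uptake receptor that is also abundant in capillary endothelium, lay lower in the RV, at 40.5 to 51.9 RPKM in LV P7 and 39.3 and 35.3 RPKM in RV P7 (-0.35 ± 0.27, adjusted p = 0.95). Of 24 glycolysis genes 8 had both RV libraries above (8.11% over all entries) and 3 had an unadjusted p under 0.05. Their median was 0.09, at 0.17 without RV P7 replicate 1 and 0.06 without RV P7 replicate 2, or 0.20 and 0.01 with the block. The 31 respiratory chain genes had a median of 0.05, 0 calls and 0 at an unadjusted p under 0.05. Ucp2, an uncoupling protein outside these lists, was called with the block, at 71.8, 57.5 and 65.7 RPKM in LV P7 and 99.8 and 84.9 RPKM in RV P7 (0.51 ± 0.09, adjusted p = 0.00726).

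Cell cycle genes were even between the chambers at P7. Mki67, which marks cycling cells, was at 25.1, 26.7 and 28.1 RPKM in LV P7 and 26.4 and 25.2 RPKM in RV P7. The 22 tested genes of mitosis had a median difference of -0.01, with 0 called and 0 at an unadjusted p under 0.05, and the 22 of DNA replication had 0.03, with 0 and 0. At P3 the mitosis median was -0.55. Ccnd1, the G1 cyclin, was called lower with the block and was picked after its values were seen, at 60.2, 57.4 and 61.1 RPKM in LV P7 and 39.7 and 46.9 RPKM in RV P7 (-0.44 ± 0.09, adjusted p = 0.0289).

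Of 12 tested red cell genes 0 were called in either fit, and 4 had an unadjusted p under 0.05 without the block. In 9 of the 12 both RV libraries lay below all LV libraries, against 15.5% of all tested entries. The median was -0.39, and -0.22 with the block without RV P7 replicate 1. Hba-a1, an alpha globin that shares most of its sequence with Hba-a2, was at 757, 637 and 884 RPKM in LV P7 and 494 and 576 RPKM in RV P7. The difference of -0.50 ± 0.20 was not called (adjusted p = 0.59). Reads of the 2 alpha globins may be split between them by the authors' counting. In the list of antigen presentation and interferon genes, 10 of 16 had both RV libraries below, against 15.5% of all tested entries, and 0 were called (2 at an unadjusted p under 0.05, limma). The median was -0.30, and without RV P7 replicate 1 it was -0.19, or -0.16 with the block. B2m, the light chain of MHC class I, overlapped, at 336 to 450 RPKM in LV P7 and 264 and 406 RPKM in RV P7. RV P7 replicate 1 had the lowest sum of that list, 464 RPKM against 666 RPKM in RV P7 replicate 2 and 592 to 737 RPKM in LV P7. The part of blood content and of that library in the endothelial and red cell differences was not tested. Macrophage genes were even, with a median of -0.02 and 0 of 10 called.

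The P7 differences were then set beside those at the earlier ages. All 17 entries called at P7 had the same sign at P3, and 9 of them were also called there (of 88 entries called at P3, 0.825%). At P0, 12 of 17 had the same sign and 1, Nrn1, was called (of 15 called at P0, 0.141%). Over all tested entries 56.2% had the same sign at P7 and P3, and 56.3% at P7 and P0. The ages share no libraries. In the test of whether the P7 difference departs from the mean of those at P0 and P3, 0 entries passed without the block (0.00%), with 537 at an unadjusted p under 0.05 by limma and 0 calls by limma voom on the recovered reads. With the block 12 passed (0.112%). The 12 rested on both pairs of P7 libraries, and almost all of them were lost with 1 pair at a time. All 12 kept their sign there, but their departure averages the same pairs, so this is no separate support.

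Nppb was one of those 12. At P0 it was at 176, 292 and 355 RPKM in the LV and 265, 336 and 441 RPKM in the RV, which overlap, and at P3 at 64.7 to 117 RPKM in the LV and 23.3 to 39.2 RPKM in the RV. Without the block the RV minus LV difference was 0.37 ± 0.27 at P0, -1.63 ± 0.27 at P3 and -1.96 ± 0.30 at P7. It was called at P3 as well (adjusted p = 0.00555, limma). With the block it was -1.63 at P3 and -1.84 at P7. P7 then departed from the mean of the earlier ages by -1.21 ± 0.19 (adjusted p = 0.0116). Without the block that departure was -1.33 and was not called (adjusted p = 0.54). Aqp4 differed by 0.09 at P0, 0.11 at P3 and 1.12 at P7 without the block. Its departure with the block was 0.94 ± 0.13 (adjusted p = 0.0111, limma). The LV level of Aqp4 was 12.1 to 14 RPKM at P0 and 5.05 to 8.06 RPKM at P7, while the RV level was 11.2 to 15.9 RPKM at P0 and 12.3 to 16.3 RPKM at P7. Acta2 differed by 0.10 at P0, 0.34 at P3 and 0.93 at P7 without the block. Its departure with the block was 0.78 ± 0.14 (adjusted p = 0.0237, limma). Ppp1r1b differed by -0.77 at P0, -0.51 at P3 and 0.12 at P7 without the block. Its departure with the block was 0.79 ± 0.12 (adjusted p = 0.0111, limma). The P7 levels of Ppp1r1b lay between 2.11 and 3.54 RPKM in both chambers.

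Nrn1 and Ddc were also called at an earlier age. Nrn1 differed by -1.30 ± 0.23 at P0 (adjusted p = 0.0231), by -1.45 at P3 and by -1.69 at P7. Ddc differed by 0.36 ± 0.14 at P0 (adjusted p = 0.67), 0.75 ± 0.14 at P3 (adjusted p = 0.0134) and 1.26 at P7, while its mean level was 38.7 RPKM at P0 and 7.41 RPKM at P7 in the LV, and 50.2 and 18.7 RPKM in the RV. The departure of Ddc at P7 was not called with the block (0.52 ± 0.15, adjusted p = 0.20, limma). Without the block it was 0.71 ± 0.19 (adjusted p = 0.54). Lrtm1, Wif1 and Maob differed by 0.97, 1.02 and 0.70 at P3, all called there. Sox18 was called at neither earlier age, with a difference of -0.05 at P0 (adjusted p = 0.90), -0.26 at P3 (adjusted p = 0.27) and -0.57 at P7 (limma).

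**Figure D5:**
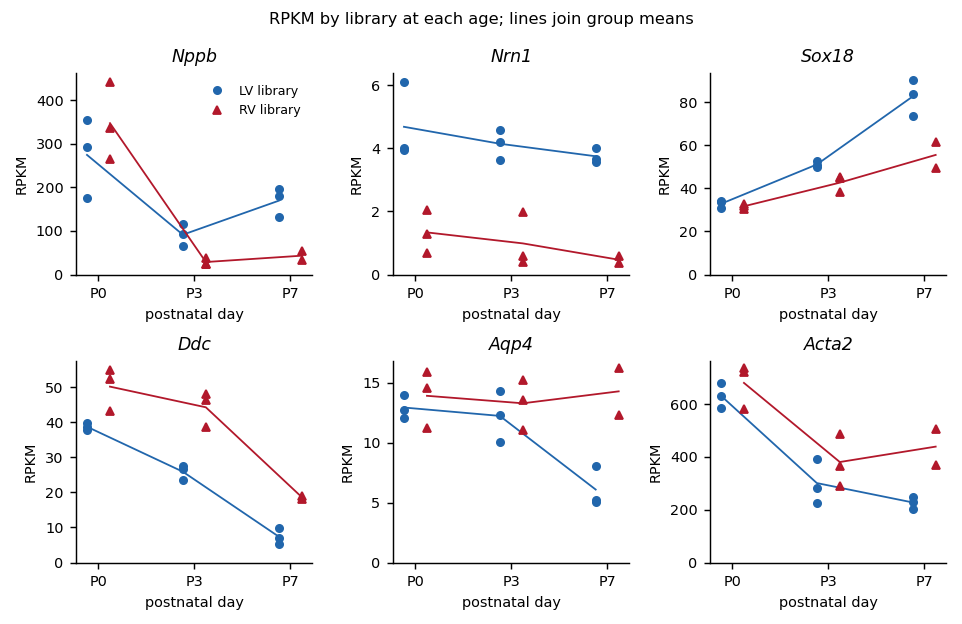
RPKM of 6 genes in every LV (circles) and RV (triangles) library at P0, P3 and P7, with lines joining the group means. At P7 the RV libraries lie below the LV libraries for Nppb, Nrn1 and Sox18 and above them for Ddc, Aqp4 and Acta2, while at P0 the chambers overlap for Nppb, Sox18, Aqp4 and Acta2.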

How the data were processed

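Total RNA of LV and RV was sequenced from strand-specific paired-end libraries. The values the authors deposited are taken as RPKM, 1 per RefSeq messenger RNA entry; the unit was inferred, since low values were whole multiples of a step that fell with transcript length, and no header names it. Per the submitters' processing notes, STAR 2.4.0j was used with build mm10. No source used here gives the counting tool, its use of strand or any filter. Dividing by the step gave whole reads, within 0.02, for 100% of 20624 entries, and these served for depth and for limma voom. Names came from RefSeq tables of GRCm38.p6 (20379 entries) and GENCODE M21 (76), and 169 entries stayed unnamed. Promoter windows are RefSeq's, GRCm38.p6.

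Values were taken as log2(RPKM + 1) for the 10668 entries that reached 1 RPKM in 2 or more of 17 libraries, so a difference on this scale understates the change of low genes. All 17 libraries entered a linear model of 6 group means in limma 3.58.1 (lmFit, contrasts.fit, eBayes with trend; R 4.3.3), since RV P7 has 2 libraries. Tests were two-sided, with Benjamini-Hochberg adjustment over all tested entries, and called under 0.05. The fit without the block was run on simulated data that held no pair effect. The fit with the block was not. Errors after log2 values are SE. The replicate block is a term for library number within age. Residuals of the 8 pairs of an LV and an RV library of 1 age and number correlated at 0.27 to 0.59. The 16 other pairs were at -0.40 to 0.09. They are no independent contrast, since residuals cancel within a group, and at P7 the 2 RV libraries mirror each other. All 8 were over the rule of 0.1, so the numbers were taken as pairs. This comes from the data, not from the labels. p-values measure the spread between these libraries. With the block most of that spread comes from the P0 and P3 pairs. A fit with 1 pair at P7 holds no P7 spread, and one with 1 RV P7 library holds none of RV P7.

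The 34 gene lists, the members and the tests were chosen with earlier results of these data known. Named genes were the 12 highest and 12 lowest called entries whose higher group averaged 5 RPKM or more and did not overlap the other, up to 4 called members per list at 1 RPKM or more, a fixed set of chamber and muscle genes, and the 4 highest and 4 lowest called departures from earlier ages at 5 RPKM or more. The first part of the rule named 12 genes and the last named none. List counts use the entry of each gene with the highest mean and have no list test. Alternatives (12 planned, 3 added after seeing the data) changed the pseudocount, filter, scaling, block, libraries or model. Counts of reads cover counting error only. The values of 1 gene are not reported here.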

Additional observations from a re-analysis of the deposited data

Results flagged for a closer look

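With the replicate block, 12 entries had an RV minus LV difference at P7 that differed from the mean of the differences at P0 and P3, and the values below are that departure on the log2(RPKM + 1) scale with limma's adjusted p. Below that mean were Nppb (-1.21, adjusted p = 0.0116), Mybphl (-1.20, adjusted p = 0.0111) and Stfa1 (-1.07, adjusted p = 0.0111). So were Nts (-0.82, adjusted p = 0.0116) and Spink4 (-0.75, adjusted p = 0.0237). Tpt1 (-0.75, adjusted p = 0.0494) and BC028528 (-0.67, adjusted p = 0.0149) were also below it. For Nppb the mean includes a P0 difference of 0.37, and the P3 difference was already -1.63. Above that mean were Cdca3 (0.61, adjusted p = 0.0494), Acta2 (0.78, adjusted p = 0.0237) and Ppp1r1b (0.79, adjusted p = 0.0111). So were H4c1 (0.90, adjusted p = 0.0226) and Aqp4 (0.94, adjusted p = 0.0111). Without the block the unadjusted p of the 12 entries ran from 8.67e-05 to 0.047 (limma), and 0 of them passed the adjustment.

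Mybphl, a relative of myosin binding protein C, differed by 1.24 at P0 and -0.51 at P7, where it was at 1.92 to 2.99 RPKM in the LV and 0.924 and 2.16 RPKM in the RV. Nts, the neurotensin precursor, differed by 0.43 at P0 and was at 15.5, 25.4 and 23.1 RPKM in LV P7 and 10.3 and 14.8 RPKM in RV P7. Stfa1, a stefin, was at 2.42 to 2.88 RPKM in LV P7 and 0.265 and 0.769 RPKM in RV P7. The H4c1 histone entry was listed at 0 in LV P7 replicate 2 and at 0.721 to 1.42 RPKM in the other 4 libraries, so its difference rests on low values.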

How the results depend on the processing

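The 17 calls at P7 (8 higher in RV, 9 lower) became 11 (5 and 6) with a pseudocount of 0.1, 8 (7 and 1) without a filter, 14 (5 and 9) with a filter at 5 RPKM, 35 (13 and 22) with upper-quartile scaling, 39 (23 and 16) with only the P7 libraries, 26 (11 and 15) with limma voom and 107 (47 and 60) with the replicate block. Leaving out 1 library gave 0 to 10 calls (0 to 8 higher, 0 to 5 lower). Added after seeing the data, the block gave 22 calls (19 and 3) without RV P7 replicate 1, 31 (14 and 17) without RV P7 replicate 2 and 216 (77 and 139) with upper-quartile scaling. The departure from earlier ages gave 3 calls without a filter, 12 with the block, 0 to 1 without 1 library, 3 and 1 with the block without RV P7 replicates 1 and 2, and 44 with block and upper-quartile scaling. The cause of these changes was not tested, except that a lone RV library leaves fewer samples. It also leaves no spread of RV P7, so the counts from those fits are no test of the P7 differences. The 17 kept their direction wherever they were tested. Their RV and LV values did not overlap, so leaving out a library could not reverse them.

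Genes not called with all libraries changed sign in some settings. Leaving out 1 P7 library gave -0.129 to 0.0990 for Irx4, -0.124 to 0.0909 for Myl2, -2.04 to 0.0323 for Myl7, -0.0411 to 0.281 for Ppp1r1b, -0.0412 to 0.168 for Tbx5 and -0.151 to 0.489 for Tcap. With upper-quartile scaling Irx4 was at 0.00148 and Myl2 at 0.00788, and with the replicate block Myl2 was at 0.00966. With the block and without RV P7 replicate 1, Irx4 was at 0.102, Irx5 at 0.141, Myl2 at 0.0991, Myl4 at 0.0551 and Myl7 at 0.0642. With the block and without RV P7 replicate 2, Hand2 was at -0.103, Mki67 at 0.0723, Myh7 at 0.00705, Tcap at -0.0445 and Tnni1 at -0.0178. With the block and upper-quartile scaling Myl2 was at 0.0201 and Mki67 at 0.00501.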

Other observations

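Among the other genes called with the replicate block at P7 were signalling genes, picked after their values were seen. Tcim, a regulator of transcription and Wnt signalling, was at 47.1, 49.3 and 49.6 RPKM in LV P7 and 28.5 and 30.6 RPKM in RV P7 (-0.69 ± 0.11 with the block, limma adjusted p = 0.0024). Cd38, an enzyme that consumes NAD, was at 11.8, 11.1 and 11.8 RPKM in LV P7 and 7.18 and 7.67 RPKM in RV P7 (-0.56 ± 0.11, adjusted p = 0.0155). Nrarp, a Notch target that limits Notch signalling, was at 27.6, 20.2 and 23.4 RPKM in LV P7 and 16.4 and 16.1 RPKM in RV P7 (-0.52 ± 0.11, adjusted p = 0.0252). Efnb3, an ephrin ligand, lay the other way, at 37.6, 26.6 and 31.4 RPKM in LV P7 and 53.6 and 40.02 RPKM in RV P7 (0.54 ± 0.09, adjusted p = 0.00724). In each of these 4 genes the RV libraries did not overlap the LV libraries, and each missed the threshold without the block, at adjusted p = 0.0513, 0.0664, 0.229 and 0.191 (limma).

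An entry of 1 transcript that the tables used here do not name followed the replicate number rather than the chamber at P7. It was at 3.19 RPKM in LV P7 replicate 1 and 7.26 RPKM in RV P7 replicate 1, and at 0.17 to 0.21 RPKM in the other 3 libraries.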
